A study of Mus musculus with 4 samples.

Results

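The mitochondrial ribosomal protein genes were read on 4 arrays of mouse hearts under pressure overload. Members are all genes whose symbol starts with Mrpl or Mrps followed by a number and that have a probe set with this 1 symbol in the array annotation. They number 77 of the 19938 genes named in this way, 48 with a large subunit symbol (Mrpl) and 29 with a small subunit symbol (Mrps). All 77 passed the filter on dim probe sets. On 3 arrays were hearts of MAFbx KO mice, which lack the muscle F-box protein MAFbx (atrogin-1, gene Fbxo32), and on 1 array the heart of a wild type mouse. Both genotypes had transverse aortic constriction (TAC, surgery that narrows the aorta and loads the heart with pressure), and total RNA was taken 1 week later. Whether each numbered heart came from a different animal is not stated, so p-values measure only the spread between these samples, which may be technical in part. The labels name no strain, age, sex or allele design, and no heart without TAC was analysed here.

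Mitochondria keep a ribosome of their own, which makes the few respiratory chain proteins that mitochondrial DNA encodes. Its RNA comes from mitochondrial DNA, while all of its proteins are encoded in the nucleus, made in the cytosol and imported. Some of these proteins have counterparts in bacterial ribosomes and others are specific to mitochondria. The heart depends on respiration, and in humans inherited defects in members such as MRPL3, MRPL44 and MRPS22 can cause cardiomyopathy.

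Values are on the log2 scale after RMA, so a difference of 1 is 2-fold, and a difference is always knockout minus wild type. Since 1 wild type array shows no spread, the fit takes that of the knockout arrays for both genotypes. Fbxo32 read 5.65, 5.61 and 5.56 on the knockout arrays, against 7.54 on the wild type array. The 12 cardiomyocyte markers lay between 11.76 and 13.54 on the knockout arrays and between 11.52 and 13.47 on the wild type array. Xist, the RNA of the inactive X chromosome, read 9.18, 9.52 and 3.20 on knockouts 1, 2 and 3, against 4.13 on the wild type array. The wild type array therefore shares low Xist with knockout 3 alone, and genotype is partly confounded with this split. Eif2s3y, a gene of the Y chromosome, read 3.31, 3.64 and 8.49 on knockouts 1, 2 and 3, against 8.57 on the wild type array. Sex is not in the labels. By Xist and Eif2s3y, knockouts 1 and 2 read as female, and knockout 3 and the wild type array as male. On this reading knockout 3 is not the same animal as knockout 1 or 2, so the knockout spread is not technical alone. In bulk tissue, fewer cells of a type and less RNA per cell cannot be told apart.

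The promoters of members come first, with the motifs searched in them. RefSeq promoters (GRCm38.p6, 250 bases before to 50 after the start) were matched by gene identifier for 68 of the 77 members, with 74 promoters. The letters searched on both strands were GCGCA, any base and GCGC in 1 run for NRF1, CCGGAAG for the ETS factors (among them GABPA), AANATGGCG for YY1 and TATAAA for the TATA box. N stands for any base, and the end of the ETS letters can overlap the start of the YY1 letters. NRF1, GABPA and YY1 are textbook regulators of nuclear genes for mitochondria. At least 1 of these 3 was found in 41 of the 74 member promoters (55.4%), against 14.2% of all 32851 promoters in the table and 18.8% of the 21263 promoters of protein-coding genes. ETS letters stood in 33.8% of member promoters and 8.86% of all promoters, NRF1 letters in 17.6% and 4.60%, and YY1 letters in 14.9% and 2.38%. In promoters of protein-coding genes these shares were 11.6% for ETS, 6.38% for NRF1 and 3.12% for YY1 letters. TATA letters went the other way, in 6.76% of member promoters, 13.6% of all and 12.6% of those of protein-coding genes. The median GC content was 58.5% in member promoters, 52.7% in all promoters and 56.3% in those of protein-coding genes. A match is a description of the letters, not a site of binding.

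The promoters printed are those of the large and small subunit members with the lowest and the highest difference among members whose knockout arrays all lay on 1 side of the wild type array. They are Mrpl32 (chr13:14612988-14613287, minus strand), Mrps18b (chr17:35916391-35916690, minus strand), Mrpl28 (chr17:26123253-26123552, plus strand) and Mrps17 (chr5:129715247-129715546, plus strand). Capitals mark any of the 4 motifs.
Mrpl32: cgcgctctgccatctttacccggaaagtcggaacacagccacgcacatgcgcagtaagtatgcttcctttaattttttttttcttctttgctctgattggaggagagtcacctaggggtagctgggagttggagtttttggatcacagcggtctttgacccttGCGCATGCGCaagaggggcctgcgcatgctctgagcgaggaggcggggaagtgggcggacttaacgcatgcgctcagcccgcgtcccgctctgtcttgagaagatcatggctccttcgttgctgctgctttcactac
Mrps18b: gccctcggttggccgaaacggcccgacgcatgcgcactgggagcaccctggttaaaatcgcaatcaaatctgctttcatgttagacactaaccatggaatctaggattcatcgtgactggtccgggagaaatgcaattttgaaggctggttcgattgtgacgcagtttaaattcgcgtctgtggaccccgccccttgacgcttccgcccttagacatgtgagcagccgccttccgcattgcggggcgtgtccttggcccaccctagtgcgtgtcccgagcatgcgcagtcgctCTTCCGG
Mrpl28: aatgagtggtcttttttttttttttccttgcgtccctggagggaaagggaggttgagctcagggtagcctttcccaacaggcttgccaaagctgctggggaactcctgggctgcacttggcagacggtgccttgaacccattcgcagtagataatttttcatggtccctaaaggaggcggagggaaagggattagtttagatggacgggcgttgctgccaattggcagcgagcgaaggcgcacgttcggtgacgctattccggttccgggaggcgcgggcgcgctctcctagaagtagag
Mrps17: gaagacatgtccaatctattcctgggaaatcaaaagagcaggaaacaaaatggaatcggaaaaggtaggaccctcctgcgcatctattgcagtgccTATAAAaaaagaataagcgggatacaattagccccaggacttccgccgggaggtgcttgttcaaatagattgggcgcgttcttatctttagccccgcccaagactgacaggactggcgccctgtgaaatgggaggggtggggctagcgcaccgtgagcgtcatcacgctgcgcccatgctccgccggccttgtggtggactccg
Mrpl32 holds the palindromic NRF1 letters from position -87 relative to the start, and Mrps18b the ETS letters on the reverse strand from base 44 after it. Mrps17 holds TATA letters from position -154, farther away than a TATA box usually lies. Mrpl28 holds none of the 4, which says only that these letters are not in this window.

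Averaged over the 3 knockout arrays, the mitochondrial ribosomal protein genes as a family lay close to the 1 wild type array. The medians for knockouts 1, 2 and 3 alone were 0.02, 0.14 and -0.14, so the average joins arrays on both sides of it. The median difference over all 77 members was 0.03, with the middle 50% of members between -0.06 and 0.15, against a median of 0.00 over the 14914 genes tested. Members also differed less in size than genes in general, with a median absolute difference of 0.09 against 0.15 over all genes tested. Their spread between the knockout arrays was no smaller, with a median SD of 0.18 for members and 0.16 for all genes tested (n = 3 knockout arrays). With limma, 0 members passed an adjusted p of 0.05 in either direction, where 0% of all genes tested passed as higher and 0.00671% as lower. At an unadjusted p under 0.05 the fit gave 0 members higher and 3 lower (Mrpl32, Mrps18b and Mrpl52, 3.90%), beside 1.68% and 4.05% of all genes tested. The smallest adjusted p of any member was 0.737, for Mrpl32. For a typical member the 95% confidence interval reached 0.475 to either side of its difference, so a change of that size could be missed. At the adjusted threshold much larger changes could be missed too. Fbxo32, the gene that the knockout lacks, did not pass it with a difference of -1.93.

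**Figure D1:**
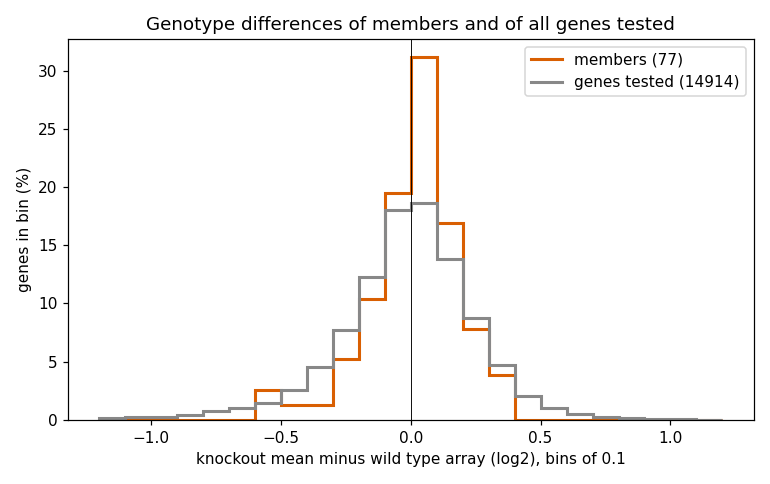
Share of genes (%, y axis) by knockout mean minus wild type array (log2, x axis, bins of 0.1) for the 77 members and the 14914 genes tested. Members are packed around 0 and run from -0.54 to 0.39, and 75 of the genes tested lie beyond the axis limit of 1.2.

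The large and the small subunit genes had close medians, and the difference between them was not tested. The median difference was 0.03 for 48 large subunit members, with the middle 50% between -0.07 and 0.11, and 0.03 for 29 small subunit members, with the middle 50% between -0.05 and 0.15. Of the large subunit members 9 (18.8%) had all 3 knockout arrays above the wild type array and 7 (14.6%) all 3 below, and of the small subunit members 8 (27.6%) lay above and 6 (20.7%) below. Together 17 members (22.1%) lay above and 13 (16.9%) below, near or under the shares over all genes tested, 23.9% above and 24.6% below. Under a renewed quantile normalization 26 members (33.8%) lay above and 12 (15.6%) below, beside 27.7% and 23.3% of all genes tested. Under median centring 23 members (29.9%) lay above and 11 (14.3%) below, beside 28.8% and 21.2% of all genes tested. The other 47 members had the knockout arrays on both sides of the wild type array, or equal to it. Symbols do not always tell the subunit: in structures of the mammalian mitoribosome Mrps18a and Mrps30 sit in the large subunit, and Mrps36 is now known as a part of the alpha-ketoglutarate dehydrogenase complex. Sorted by structure, the medians stayed at 0.03 for 50 large and 0.03 for 26 small subunit members.

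Sorted by evolutionary origin, members had close medians and unequal counts on 1 side of the wild type array. Of 45 members with a bacterial counterpart 14 (31.1%) lay above the wild type array in all knockout hearts and 9 (20.0%) below. Of 31 members that ribosome nomenclature counts as specific to mitochondria 3 (9.68%) lay above and 4 (12.9%) below. Over all genes tested the shares were 23.9% and 24.6%. Mrps18a and Mrps18b are among the 31, although they are related to a bacterial protein. The medians were 0.03 and 0.04, and the difference between these counts was not tested.

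**Figure D2:**
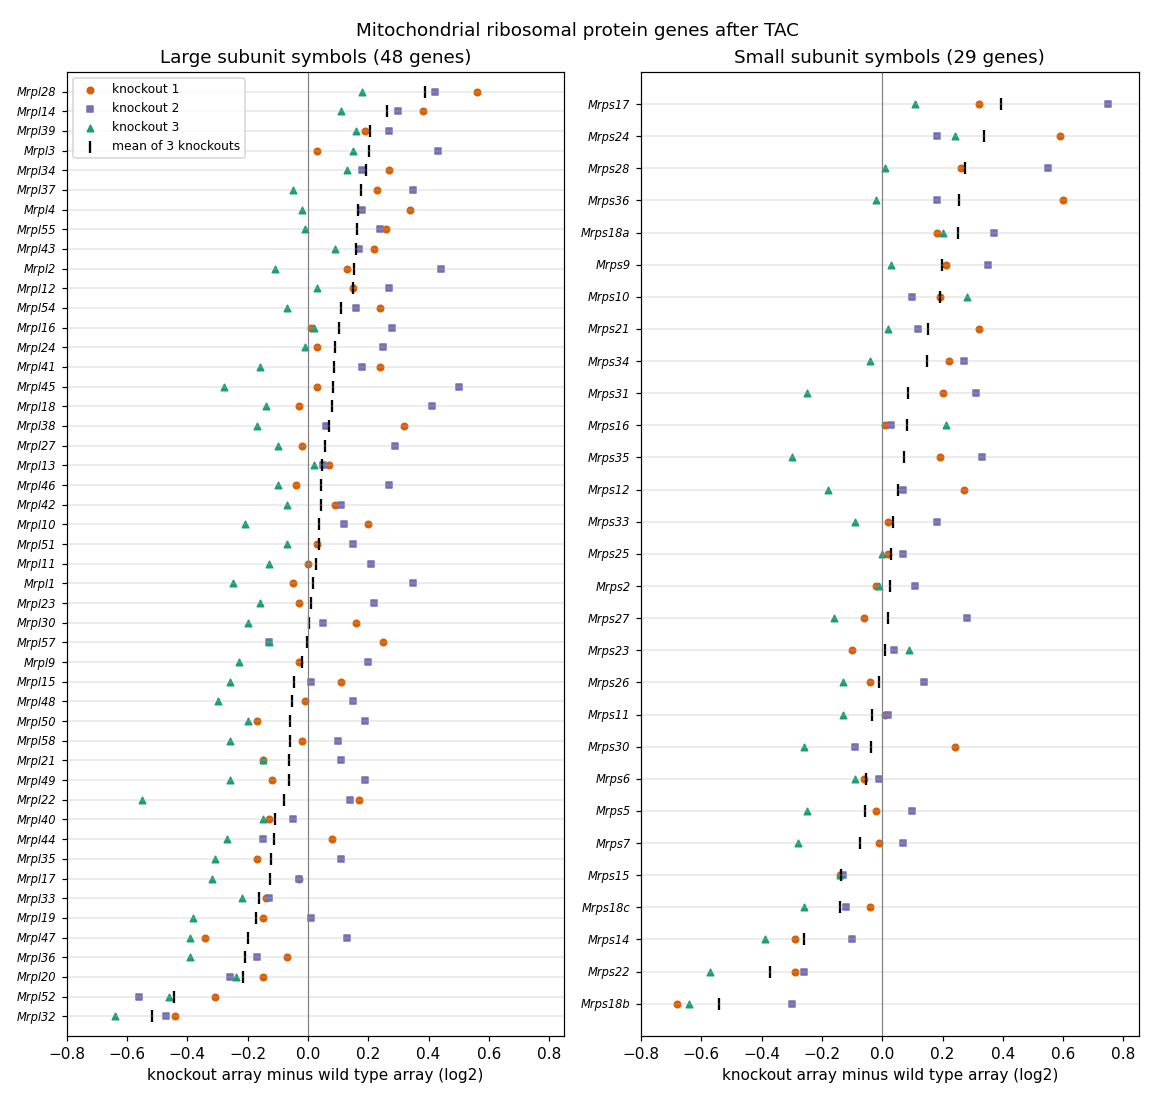
Each of the 77 members (rows, sorted by mean difference) with its 3 knockout arrays minus the wild type array (log2, x axis), large subunit symbols on the left and small on the right; the black tick is the knockout mean. Knockout 3 (triangles) is mostly the leftmost point and knockout 2 (squares) mostly lies right of 0, whichever the gene's mean.

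By the medians over members, knockouts 2 and 3 differed more from each other than either did from the wild type array. Knockout 3 also differed from knockouts 1 and 2 in Xist, and the part of that split was not tested. Knockout 2 read above the wild type array in 61 of 77 members (median difference 0.14), while knockout 3 read below it in 58 of 77 (median difference -0.14), and knockout 1 lay near it (43 members above, median difference 0.02). Over all genes tested the medians were 0.00 for knockout 2, -0.01 for knockout 3 and 0.01 for knockout 1. The shares of all genes tested above the wild type array were 48.6%, 47.1% and 50.4% in that order. Knockout 3 had the lowest of the 4 values in 51 members (66.2%) and knockout 2 the highest in 40 (51.9%), where over all genes tested knockout 3 was lowest in 25.1% and knockout 2 highest in 23.3%. Set against each other, knockout 2 read above knockout 3 in 70 of 77 members (90.9%), with a median difference of 0.26, against 50.2% of all genes tested. Both subunits shared this order. For knockouts 1, 2 and 3 the medians were 0.03, 0.17 and -0.16 over large subunit members and 0.02, 0.10 and -0.09 over small subunit members.

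The counts above depended on which knockout heart was included. Without knockout 3, 40 members lay above and 13 below the wild type array (35.6% and 35.1% of all genes tested on these arrays), and without knockout 2, 17 lay above and 32 below (30.9% and 31.8%). Without knockout 1 the counts were 18 and 16 (29.6% and 32.1%). Between knockout 3 and the wild type array, which share low Xist, 18 members (23.4%) read higher in knockout 3 and 58 lower. Of the 14914 genes tested 7025 (47.1%) read higher there and 7565 lower. The median difference there was -0.14, the opposite sign to the whole comparison. Xist as a covariate leaves the genotype term on the same arrays, so its equal value is not a second result.

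Marker genes of other cells also differed between these hearts. Antilogged values summed over 11 fibroblast markers were 9311, 12590 and 23250 in knockouts 1, 2 and 3, against 16000 in the wild type heart, so knockout 3, where mitochondrial ribosomal protein genes read lowest, had the most. Of the 11 markers 2 lay above the wild type array in all knockout hearts and 1 below. The 13 macrophage markers summed to 3399, 3823 and 5314 in the knockout hearts, against 7254 in the wild type heart, and 12 of the 13 lay below it in all knockout hearts. Of the marker lists this was the one with the clearest genotype difference, with 9 of 13 lower at an unadjusted limma p under 0.05 and 0 at the adjusted threshold. Of all genes tested 4.05% were lower at that unadjusted p, and 0.00671% passed the adjusted threshold as lower. The 12 cardiomyocyte markers summed to 93920, 94850 and 86040 in the knockout hearts, against 84290 in the wild type heart, with 7 above in all knockout hearts and 0 below. For 10 endothelial markers the sums were 5118, 4828 and 5465 in the knockout hearts, against 4085 in the wild type heart, with 6 above and 0 below. Of 7 T and B cell markers 5 passed the filter, and these summed to 226.4, 247.2 and 296.2 in the knockout hearts, against 342.6 in the wild type heart, with 2 above (Cd3e and Cd3g) and 2 below (Ptprc and Cd4). Ptprc, which all leukocytes express, read 6.15, 6.35 and 6.90 in the knockout hearts, against 7.54 in the wild type heart, and made the largest difference in that sum. Fibroblast and macrophage markers were both highest among the knockout hearts in knockout 3, and cardiomyocyte markers lowest there. Over all genes tested 23.9% lay above the wild type array in all knockout hearts and 24.6% below. The part of these cells in the results was not tested.

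Within the large subunit, Mrpl32 and Mrpl52 had the lowest differences. Mrpl32, a protein whose trimming by the m-AAA protease is needed for ribosome assembly, read 7.91, 7.88 and 7.71 in the knockout hearts, against 8.35 in the wild type heart. All 3 knockout values lay below the wild type value, and they differed from each other by less than from it. The mean of 7.83 ± 0.11 (SD, n = 3) gave a difference of -0.52 (SE 0.18), 1.43-fold lower, with a limma adjusted p = 0.737. Mrpl52, specific to mitochondria, read 8.86, 8.61 and 8.71 in the knockout hearts, against 9.17 in the wild type heart. Like Mrpl32 it lay below in all 3 knockout hearts, as 24.6% of all genes tested did. Its difference was -0.44 (SE 0.19, limma adjusted p = 0.864). Both were under an unadjusted p of 0.05, and neither passed the threshold over all genes.

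Mrps18b had the lowest difference of the family and belongs to a set of 3 paralogs. It read 8.77, 9.15 and 8.81 in the knockout hearts, against 9.45 in the wild type heart, a difference of -0.54 (SE 0.21, limma adjusted p = 0.816). Its paralogs, like it related to the single S18 protein of bacteria, lay closer to the wild type heart. Mrps18a, the paralog of the large subunit, read 9.80, 9.99 and 9.82 in the knockout hearts, against 9.62 in the wild type heart, a difference of 0.25 (SE 0.18, limma adjusted p = 0.945). Mrps18c, the closest counterpart of the bacterial protein, read 10.69, 10.61 and 10.47 in the knockout hearts, against 10.73 in the wild type heart, a difference of -0.14 (SE 0.18, limma adjusted p = 0.989). All 3 had the knockout arrays on 1 side of the wild type array, Mrps18b and Mrps18c below and Mrps18a above. The difference between paralogs was not tested. Mrps18a and Mrps18b both lie on chromosome 17 and Mrps18c on chromosome 5.

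Other small subunit members on the low side were Mrps22 and Mrps14. Mrps22, specific to mitochondria, read 7.86, 7.89 and 7.58 in the knockout hearts, against 8.15 in the wild type heart, a difference of -0.37 (SE 0.20, limma adjusted p = 0.923). Knockout 3 stood apart at the low end. Mrps14, the counterpart of bacterial S14, read 7.75, 7.94 and 7.65 in the knockout hearts, against 8.04 in the wild type heart, a difference of -0.26 (SE 0.19, limma adjusted p = 0.945). Mrps15, the counterpart of bacterial S15, had the tightest knockout values of the family, 10.66, 10.67 and 10.66, against 10.80 in the wild type heart. With the moderated variance of limma its difference of -0.14 had an SE of 0.17 (limma adjusted p = 0.983).

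On the low side of the large subunit, differences were smaller after Mrpl32 and Mrpl52. Mrpl20, the counterpart of bacterial L20, read 8.17, 8.06 and 8.08 in the knockout hearts, against 8.32 in the wild type heart (difference -0.22, SE 0.17). Mrpl36, the counterpart of bacterial L36, read 9.23, 9.13 and 8.91 in the knockout hearts, against 9.30 in the wild type heart (difference -0.21, SE 0.20, and -0.12 without knockout 3). Mrpl33, the counterpart of bacterial L33, read 6.68, 6.69 and 6.60 in the knockout hearts, against 6.82 in the wild type heart (difference -0.16, SE 0.17). In each all 3 knockout arrays lay below the 1 wild type array, as they did in 24.6% of all genes tested. None reached an unadjusted limma p under 0.05. Mrpl17 and Mrpl40, at -0.13 and -0.11, and Mrps6, at -0.05, made up the rest of the 13 members below in all knockout hearts.

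Mrps17 and Mrps24 read highest relative to wild type in the small subunit. Mrps17, the counterpart of bacterial S17, read 8.0, 8.43 and 7.79 in the knockout hearts, against 7.68 in the wild type heart, a difference of 0.39 (SE 0.26, limma adjusted p = 0.932). Without knockout 2 the difference was 0.215, and knockout 3 lay 0.11 above the wild type heart. Mrps24, the counterpart of bacterial S3, read 8.35, 7.94 and 8.0 in the knockout hearts, against 7.76 in the wild type heart, a difference of 0.34 (SE 0.22, limma adjusted p = 0.924), and 0.21 without knockout 1. Mrps28, the counterpart of bacterial S1, read 7.76, 8.05 and 7.51 in the knockout hearts, against 7.5 in the wild type heart (difference 0.27, SE 0.24). Without knockout 2 the difference of Mrps28 was 0.135. Mrps9, the counterpart of bacterial S9, read 8.46, 8.60 and 8.28 in the knockout hearts, against 8.25 in the wild type heart (difference 0.20, SE 0.20). Without knockout 2 that of Mrps9 was 0.12. In Mrps28 and Mrps9 knockout 3 was within 0.03 of the wild type array or closer.

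In the large subunit Mrpl28 had the highest difference. This counterpart of bacterial L28 read 8.97, 8.83 and 8.59 in the knockout hearts, against 8.41 in the wild type heart, 1.31-fold higher (difference 0.39, SE 0.21, limma adjusted p = 0.923). Without knockout 3 it was 0.49 (SE 0.16, limma adjusted p = 0.448), the 1 member on the high side to reach an unadjusted p under 0.05 in that fit. Mrpl14, the counterpart of bacterial L14, read 8.58, 8.50 and 8.31 in the knockout hearts, against 8.20 in the wild type heart (difference 0.26, SE 0.19, limma adjusted p = 0.945). Both kept the order of knockout 1, 2 and 3 from high to low. Mrpl39, specific to mitochondria, read 10.29, 10.37 and 10.26 in the knockout hearts, against 10.10 in the wild type heart (difference 0.21, SE 0.17). For Mrpl3, which in bacteria shapes the centre where peptide bonds form, the knockout hearts read 8.75, 9.15 and 8.87, against 8.72 in the wild type heart (difference 0.20, SE 0.21). In both knockout 2 was highest, and without it Mrpl3 gave 0.09. Mrpl34, the counterpart of bacterial L34, read 8.29, 8.20 and 8.15 in the knockout hearts, against 8.02 in the wild type heart (difference 0.19, SE 0.17). In all of these the knockout arrays lay above the wild type array, by less than 2 SE in the fit of all 4 arrays.

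**Figure D3:**
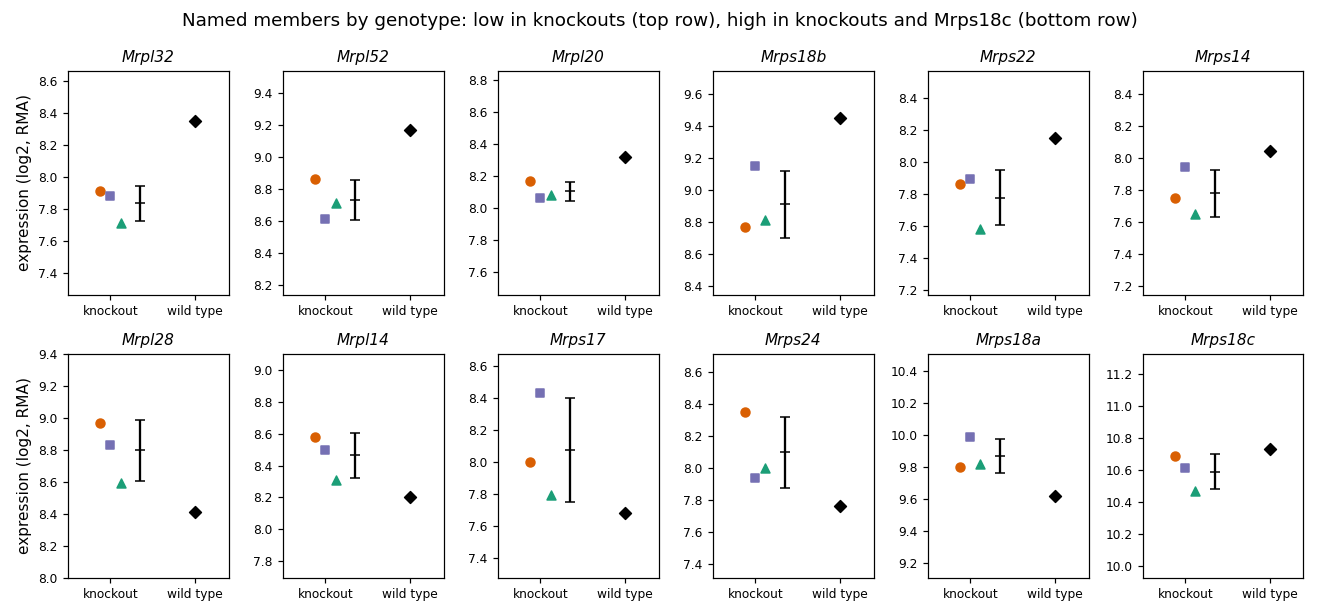
Levels (log2, y axis, 1.4 units tall in each panel) of 12 named members in knockout hearts 1 (circle), 2 (square) and 3 (triangle), with their mean and SD (n = 3, bar), and in the wild type heart (diamond). The top row and Mrps18c (last panel) have the wild type value on top, and the other panels have it at the bottom.

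Averaged over the knockout hearts, the members named here for well known roles outside these extremes lay within 0.15 of the wild type heart. Single knockout hearts lay up to 0.27 to either side of it. Mrpl12, the stalk protein that draws translation factors to the ribosome and that also binds mitochondrial RNA polymerase, read 9.34, 9.46 and 9.22 in the knockout hearts, against 9.19 in the wild type heart (difference 0.15, SE 0.18). Its neighbours in the stalk base gave 0.04 for Mrpl10 and 0.03 for Mrpl11. Mrpl44, which carries an RNase III-like fold, read 8.49, 8.26 and 8.14 in the knockout hearts, against 8.41 in the wild type heart (difference -0.11, SE 0.20), and its groups overlapped. Mrps16, the counterpart of bacterial S16, read 8.69, 8.71 and 8.89 in the knockout hearts, against 8.68 in the wild type heart (difference 0.08, SE 0.18). Mrps16 was 1 of 3 members with their highest value on knockout 3. The decoding site protein Mrps12 gave 0.05, with the knockout hearts at 7.79, 7.59 and 7.34, against 7.52 in the wild type heart.

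The 3 members with the widest spread between knockout hearts were chosen for that spread, so wide differences between hearts follow from the choice. In all 3, knockout 3 read lowest, while the highest value did not come from the same heart in each. Mrpl22, a protein of the exit tunnel, read 7.15, 7.12 and 6.43 in the knockout hearts, against 6.98 in the wild type heart, so the low value belonged to knockout 3 alone. Mrpl45, which ties the ribosome to the inner membrane, read 8.54, 9.01 and 8.23 in the knockout hearts, against 8.51 in the wild type heart. Mrps35, of the small subunit, read 9.03, 9.17 and 8.54 in the knockout hearts, against 8.84 in the wild type heart. Their SDs were 0.41, 0.39 and 0.33 (n = 3 each). Their mean differences of -0.08, 0.08 and 0.07 say little of any single heart.

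Other genes that serve the mitochondrial ribosome also had 0 members past the adjusted threshold. For 16 translation factors the median difference was 0.09, with 5 above the wild type array in all knockout hearts and 0 below, and 0 at an unadjusted limma p under 0.05. Tufm, the elongation factor that delivers transfer RNA, read 10.54, 10.54 and 10.39 in the knockout hearts, against 10.31 in the wild type heart. Taco1, an activator of the translation of cytochrome oxidase subunit 1, gave 0.24. These values lay above the wild type heart by small amounts. Among 25 assembly factors the median was 0.11, with 4 (16%) above and 1 (4%) below. The list of 21 genes that charge mitochondrial transfer RNA held synthetases and the amidotransferase subunits Gatb, Gatc and Qrsl1. Its median was 0.03, with 6 (28.6%) above and 3 (14.3%) below. Of the translation factors 31.2% lay above, while over all genes tested 23.9% lay above and 24.6% below. Cars2, the synthetase for cysteine, gave 0.42 (adjusted p = 0.923 with limma). Of 4 mitoribosomal proteins with other symbols (Dap3, Ptcd3, Chchd1 and Gadd45gip1) 0 kept to 1 side of the wild type array. In each of these lists knockout 3 again gave the lowest median of the knockout arrays, at -0.07, -0.11, -0.13 and -0.215 in the order given.

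Among 16 genes for the maintenance and transcription of mitochondrial DNA the median was 0.06, and knockout 3 had the lowest median, at -0.195. At an unadjusted limma p under 0.05 there was 1 gene, which read lower, beside 4.05% of all genes tested as lower. Trmt10c, a subunit of the enzyme that trims mitochondrial transfer RNA, read 7.47, 7.30 and 7.27 in the knockout hearts, against 7.79 in the wild type heart (difference -0.44, limma adjusted p = 0.843). Ssbp1, the single-strand binding protein of mitochondrial DNA, gave -0.38 (limma adjusted p = 0.880). Of 16 regulators of nuclear genes for mitochondria 5 (31.2%) lay above and 5 (31.2%) below in all knockout hearts, beside 23.9% and 24.6% of all genes tested. Pprc1, a coactivator of the PGC-1 family, read 6.98, 6.79 and 6.85 in the knockout hearts, against 7.41 in the wild type heart (difference -0.54, limma adjusted p = 0.690). Myc, a growth factor-induced transcription factor, gave -1.0 (limma adjusted p = 0.333). Both genes lay below the wild type heart in every knockout heart, and neither passed the threshold over all genes. Ppara and Esrrg, nuclear receptors of fuel metabolism, gave 0.52 and 0.48 (limma adjusted p = 0.923 for each). By knockout 1, 2 and 3, Ppara differed by 0.80, 0.67 and 0.10, and Esrrg by 0.73, 0.60 and 0.10.

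By their medians the members lay between the cytosolic ribosome and the respiratory chain. Over 60 cytosolic ribosomal protein genes the medians for knockouts 1, 2 and 3 minus wild type were -0.19, -0.19 and -0.18, and 40 genes (66.7%) lay below the wild type array in all knockout hearts, with 0 above. Over 34 respiratory complex I subunits they were 0.25, 0.21 and 0.08, and 22 (64.7%) lay above, with 0 below. Over 46 genes of complexes II to V they were 0.25, 0.24 and 0.07, and 33 (71.7%) lay above, with 0 below. For members the medians were 0.02, 0.14 and -0.14, with 22.1% above and 16.9% below, beside 23.9% and 24.6% of all genes tested. In the respiratory groups and in the members alike, knockout 3 had the lowest median. All of these share the 1 wild type array, and the differences between groups were not tested.

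**Figure D4:**
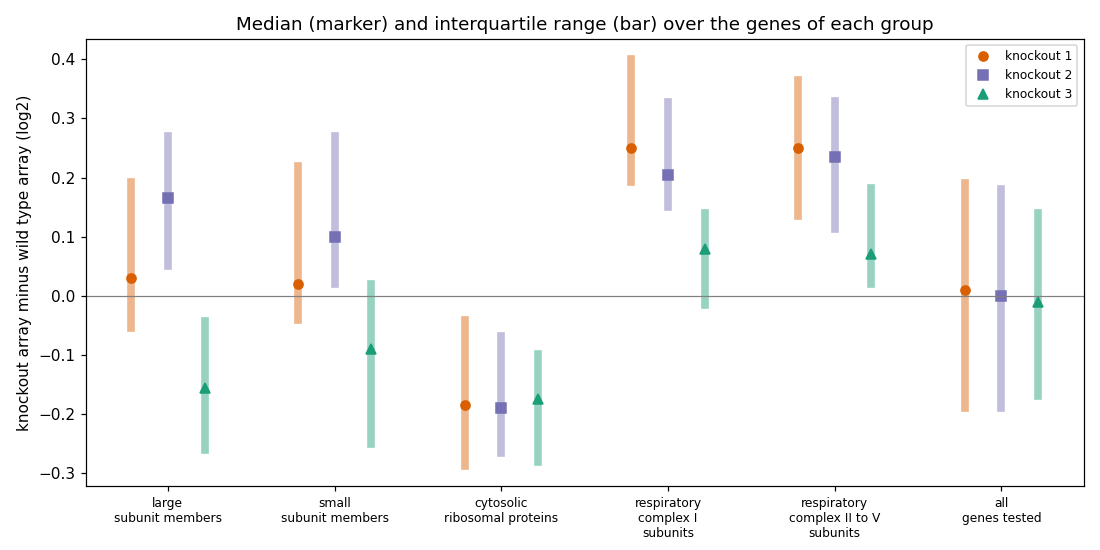
Median (marker) and middle 50% (bar) of knockout array minus wild type array (log2, y axis) over the genes of 6 groups (x axis), for knockouts 1, 2 and 3 from left to right in each group. Cytosolic ribosomal protein genes lie below 0 and respiratory genes above it on each array by their medians, while mitochondrial ribosomal protein genes lie above 0 for knockout 2 and below it for knockout 3.

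Members with and without ETS, NRF1 or YY1 letters had close medians. The 25 members with ETS letters had a median difference of 0.01, with 6 above and 6 below in all knockout hearts, and the 43 without had 0.03, with 9 and 7. The 13 with NRF1 letters had a median of 0.00, with 5 above and 2 below, against 0.03 in the 55 without, with 10 and 11. For YY1 letters the medians were 0.02 in 11 members with and 0.03 in 57 without. The 5 members with TATA letters had a median of 0.10, with 3 above and 0 below, against 0.02 in the 63 without, with 12 and 13. Over all genes tested 23.9% lay above and 24.6% below, and the differences between these groups were not tested.

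Many members start back to back with another gene. A protein-coding gene on the opposite strand starts within 500 bases of the start of 21 of the 68 members with a RefSeq promoter (30.9%), against 7.53% of 17492 protein-coding genes in the same table. Mrpl46 and Mrps11, a large and a small subunit gene, start 42 bases apart and gave 0.04 and -0.03. Mrpl14 starts 131 bases from Tmem63b, and both lay above the wild type array in all knockout hearts (0.26 and 0.29). Mrpl32 starts 205 bases from Psma2, a proteasome subunit gene, which gave -0.11 with the knockout arrays on both sides (9.35, 9.33 and 9.02, against 9.34 in the wild type heart), unlike the -0.52 of Mrpl32. In that pair the knockout hearts were on 1 side for Mrpl32 only. Mrpl47 starts 308 bases from the complex I gene Ndufb5, which read higher in every knockout heart (0.31), while Mrpl47 gave -0.20 on the probe set used and 0.31 on its other one, of nearly the same mean level. Mrps12 starts 147 bases from the mitochondrial synthetase gene Sars2 (0.05 and 0.18), and Mrpl43 starts 116 bases from Twnk, the helicase of mitochondrial DNA (0.16 and 0.10).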

How the data were processed

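The authors deposited log2 expression values per probe set for 4 Affymetrix Mouse Gene ST arrays, made with Affymetrix Expression Console and RMA, per the submitters' processing notes (no version is named). RMA equalises the arrays' distributions and so hides any shift common to most genes. The platform annotation gave a single symbol to 21789 of 35556 probe sets and several to 1621, and did not list 12146. Genes were named from single-symbol probe sets, by the probe set with the highest 4-array mean where there were several. Mrpl53 shares its probe set with another symbol and was not analysed here. A filter at the 25th percentile of their means (4.71) kept 14914 genes. All 77 members matched RefSeq (GRCm38.p6) by gene identifier, and 0 symbols were updated. The contrast knockout minus wild type was fitted in R 4.3.3 using limma 3.58.1 (lmFit, eBayes, two-sided, Benjamini-Hochberg over all genes tested, threshold 0.05), with 2 residual and 5.04 prior degrees of freedom. The script was tested on simulated data. With 1 array against 3, exact permutation reaches no p under 0.25, and the number of arrays limits the precision.

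Named members are those at an unadjusted p under 0.05, in each subunit up to 5 with the largest difference on each side with all knockout arrays on that side, the 3 with the largest knockout SD, the Mrps18 paralogs, and Mrpl12, Mrpl44, Mrps16 and Mrps22. Of the other lists up to 4 genes by smallest p could be named. Members and lists were chosen with earlier results of these data known, further members were named for their role after their values were seen, and 1 entry of unsure identity was dropped from the list of mitoribosomal proteins with other symbols. Respiratory and cytosolic ribosomal genes were taken by symbol pattern. Alternatives were renewed normalization, centring, filters, probe set rule, variance models, leaving out each knockout array, Xist as a covariate, knockout 3 against wild type 1 alone and, added after seeing the data, the subunit by structure.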

Additional observations from a re-analysis of the deposited data

How the results depend on the processing

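No member passed an adjusted p of 0.05 under any of the fits run, and the smallest adjusted p of the 26 named members over all of them was 0.448. With 1 wild type array, its own deviation enters every difference in full. No paired analysis was possible because the genotypes share only 1 replicate number. Renewed quantile normalization put 26 members above the wild type array in all knockout hearts (33.8%, against 27.7% of all genes tested). Leaving out 1 knockout array in turn gave 0 to 1 members higher and 1 to 2 lower at an unadjusted limma p under 0.05. The shares of all genes tested at that p were not counted in those fits, so these counts have no background. The same fits had 17 to 40 members above and 13 to 32 below, beside 29.6% to 35.6% and 31.8% to 35.1% of all genes tested. Their median over all members was -0.035 to 0.1. With Xist as a covariate, and likewise for knockout 3 against wild type 1 alone, the medians were -0.14 over all, -0.155 over large and -0.09 over small subunit members, and in the second 58 members read below. That covariate leaves the genotype term on these 2 arrays, where 7565 of the 14914 genes tested read below. The differences that changed sign were those of Mrpl45 and Mrps35, at -0.28 and -0.30 under both, and at -0.125 to 0.265 and -0.055 to 0.26 when 1 array was left out, and Mrpl22, at -0.205 to 0.155 when 1 was left out. The cause was not tested. The other alternatives kept the direction of all 26 named members, but not always the size. Without knockout 1, Mrpl44 gave -0.21 and Mrps24 0.21. Without knockout 2, Mrps17 gave 0.215, Mrps28 0.135, Mrps9 0.12, Mrpl3 0.09 and Mrpl12 0.09. Without knockout 3, Mrpl36 gave -0.12, Mrps18c -0.08, Mrpl44 -0.035 and Mrps16 0.02. With renewed quantile normalization Mrps15 gave -0.05 and Mrps18c -0.07. For knockout 3 against wild type 1 alone Mrpl28 gave 0.18, Mrpl14 0.11 and Mrps22 -0.57.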

Other observations

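There are 8 members with 2 probe sets each, and most pairs gave close differences. Mrpl23 gave 0.01 on the probe set used and 0 on the other, and Mrps36 gave 0.25 and 0.29, with knockout 1 highest on both (8.39 and 8.34 there, against 7.79 and 7.71 in the wild type heart). Mrpl47 did not: the probe set used read 7.04, 7.51 and 6.99 in the knockout hearts, against 7.38 in the wild type heart, while the other read 7.78, 6.99 and 7.08 in the knockout hearts, against 6.97 in the wild type heart, so the differences were -0.20 and 0.31. Mrpl41 gave 0.09 and -0.06, and Mrps5 -0.06 and 0.04. The reference table lists pseudogenes of Mrpl23, Mrpl27, Mrpl48, Mrpl51, Mrps33 and Mrps36, so signal from near-identical copies cannot be told apart from these genes, and their values are uncertain.

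Mrpl13 is the member nearest to the targeted gene, with 12 protein-coding genes between it and Fbxo32 on chromosome 15. It read 8.23, 8.21 and 8.18 in the knockout hearts, against 8.16 in the wild type heart, a difference of 0.05, while Fbxo32 itself differed by -1.93.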
